A study of Saccharomyces cerevisiae with 4 samples.

Results

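The cell wall integrity pathway of *Saccharomyces cerevisiae* was followed through the 9 genes of its kinase cascade and nuclear factors, *PKC1*, *BCK1*, *MKK1*, *MKK2*, *SLT2*, *KDX1*, *RLM1*, *SWI4* and *SWI6*. They were taken from the deposited table by their open reading frame names (YBL105C, YJL095W, YOR231W, YPL140C, YHR030C, YKL161C, YPL089C, YER111C and YLR182W, in the order above) and are 9 of 6172 genes there. Two-colour arrays set cells exposed for 3 h to zymolyase, at 0.8 units per ml, against untreated cells of the same cultures. All cells were labelled as a *mid2* mutant of the BY4741 background grown in rich medium at 24 °C, so both sides of every ratio carry that mutation, and no cells with intact *MID2* were analysed here. The 4 arrays came from 2 cultures, each hybridised in both dye orientations, and the labels do not tell which arrays share a culture. On array 4 the comment given for the untreated RNA speaks of *hog1* cells, although the genotype given for it is *mid2*. *MID2* had no value on any array. *HOG1* had log2 ratios of 0.20, 0.55, −0.15 and 0.26 on arrays 1 to 4. Its mean did not pass the test, which covers all 4 arrays and not array 4 alone. Neither gene settles which strain was used.

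Zymolyase is an enzyme preparation that digests wall glucan. Wall damage is sensed by membrane proteins such as Mid2, which act through exchange factors on the GTPase Rho1. Rho1 activates the protein kinase C homolog Pkc1, and the signal then passes through the kinase Bck1 and the redundant kinases Mkk1 and Mkk2 to the MAP kinase Slt2. Slt2 phosphorylates the MADS-box factor Rlm1, which drives many wall genes, and SBF, the complex of Swi4 and Swi6 that acts at the start of the cell cycle. Kdx1, also called Mlp1, is a paralog of Slt2. These steps are changes of protein activity, which the arrays do not measure.

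All values are log2 ratios of zymolyase-treated over untreated cells, 1 per gene and array. The numerator is not stated in the table, and the sign was read from 8 wall genes outside the 9 that are known to respond to wall damage. Their median lay between 1.49 and 2.19 on each array. All 8 were above 0 on arrays 1, 3 and 4, and 7 of the 8 on array 2. A positive ratio is therefore called likely higher in treated cells, though these 8 genes were chosen with earlier results of these data known. A ratio holds no level, and more transcript per cell cannot be told apart from a larger share of the RNA labelled. Arrays 1 and 3 carried the treated RNA in Cy3, and arrays 2 and 4 carried it in Cy5. The arrays held values for 3585 to 4965 open reading frames, and their number limits the precision. The median over the 3299 genes measured on all 4 was −0.37 on array 2 and between −0.07 and −0.02 on the other arrays, and Pearson correlations between arrays across these genes ranged from 0.13 to 0.48. On arrays 3 and 4 every value was the base-2 logarithm of a ratio with 4 decimals, whereas on arrays 1 and 2 only about 2% were, so the array pairs differ in how the values were prepared and are also given apart.

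After 3 h of zymolyase the MAP kinase gene *SLT2* rose 3.99-fold and its paralog *KDX1* rose 8.25-fold. The gene of their transcription factor, *RLM1*, lay above 0 on each of its 3 arrays without passing the test. The kinases above Slt2 (*PKC1*, *BCK1*, *MKK1*, *MKK2*) and the SBF subunits (*SWI4*, *SWI6*) had means between −0.58 and 0.00, and none of them passed. Only *SLT2*, *KDX1*, *PKC1* and *SWI4* had a value on all 4 arrays and entered the main test. *MKK1*, *MKK2* and *RLM1* had 3 values and *BCK1* and *SWI6* had 2, while 53.5% of all genes had 4. Of the 4 genes tested, 2 rose and 0 fell by limma, against 2.76% of all 3299 genes that rose and 1.39% that fell. Also at an unadjusted limma p under 0.05, 0 of the 4 fell, and 357 of all 3299 genes reached that mark in either direction.

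**Figure D1:**
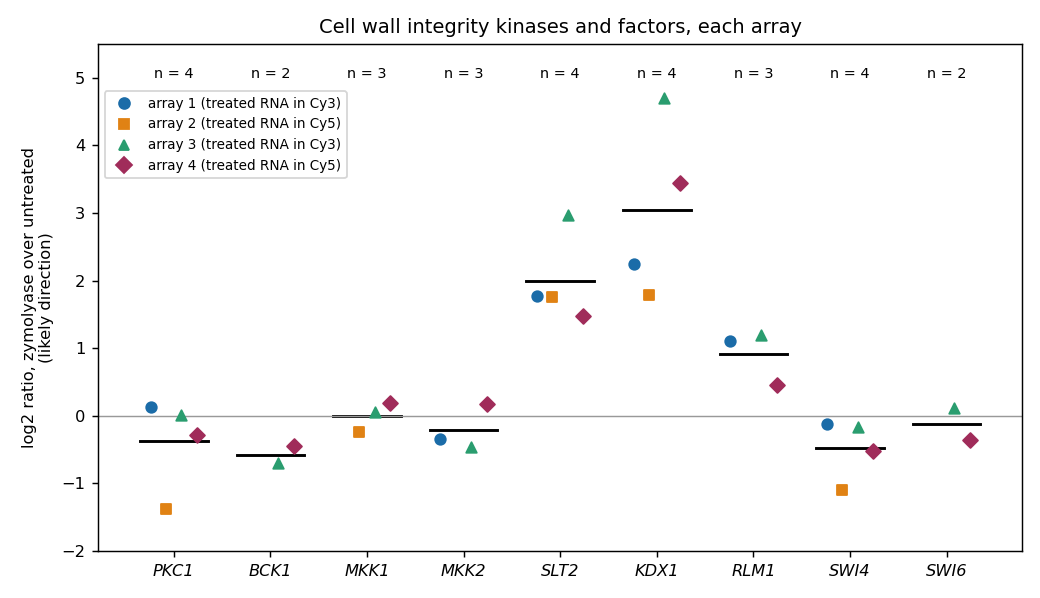
Log2 ratio of zymolyase-treated over untreated cells (vertical axis, likely direction) for each of the 9 genes, in the order of the pathway. Points are single arrays, coloured by array, black bars are the mean of the arrays with a value and n is their number. *SLT2* and *KDX1* lie above 1.4 on all 4 arrays, *RLM1* lies above 0 on 3, and the other genes lie around or below 0.

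*PKC1*, which encodes the kinase at the head of the cascade, had ratios of 0.12, −1.38, 0.01 and −0.28 on arrays 1 to 4. It was low on array 2 and close to 0 on the rest. Its mean was −0.38 ± 0.69 (SD, n = 4 arrays of 2 cultures), with a 95% interval of −0.92 to 0.16 (limma, adjusted p = 0.766). The interval leaves room for a fall to 0.527-fold and for a rise to 1.12-fold. Arrays 1, 3 and 4 alone averaged −0.05 ± 0.21 (SD, n = 3). Array 2 read low as a whole, but *PKC1* was also 1.01 below that array's median, where 4.11% of genes read lower.

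*BCK1* encodes the MAP kinase kinase kinase that Pkc1 activates. It had values on arrays 3 and 4 alone, −0.70 and −0.45, which are the same array pair and allow no test. Both lay in the lower part of their arrays, with 14.3% of genes lower on array 3 and 5.44% lower on array 4.

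*MKK1* and *MKK2* encode the paired MAP kinase kinases that phosphorylate Slt2. *MKK1* read −0.24, 0.05 and 0.19 on arrays 2, 3 and 4, and *MKK2* read −0.34, −0.46 and 0.18 on arrays 1, 3 and 4. Neither gene kept 1 sign of the ratio across its arrays. Array 2 read low as a whole, and *MKK1* lay 0.135, 0.094 and 0.259 above the medians of arrays 2, 3 and 4. *MKK2* was above 0 only on array 4, its only array with treated RNA in Cy5. In the fit of genes with at least 3 arrays their estimates were 0.00 (95% interval −0.61 to 0.49, limma, adjusted p = 0.982) for *MKK1* and −0.25 (−0.79 to 0.31, adjusted p = 0.906) for *MKK2*. On the 2 arrays that hold both, *MKK1* exceeded *MKK2* by 0.51 on array 3 and by 0.01 on array 4, too few values to tell the paralogs apart.

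*SLT2* encodes the MAP kinase on which the cascade converges. Its ratios were 1.78, 1.75, 2.98 and 1.48 on arrays 1 to 4. Array 3 was the highest, and the other arrays lay between 1.48 and 1.78. The mean was 2.00 ± 0.67 (SD, n = 4), with a 95% interval of 1.45 to 2.54, or 2.74-fold to 5.81-fold (limma, adjusted p = 1.21e-05). The ratios of *SLT2*, like those of *KDX1*, were above 0 on all 4 arrays, as for 6.15% of all genes tested. It ranked 14 of the 3299 genes by mean ratio, and at least 98.0% of genes read lower than it on every array. Arrays 1 and 2 averaged 1.76 and arrays 3 and 4 averaged 2.23, so the rise was present in both pairs.

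*KDX1* encodes a protein close to Slt2 in sequence that is regarded as an atypical kinase. Its ratios were 2.25, 1.79, 4.70 and 3.44 on arrays 1 to 4. It was the highest gene of all on arrays 3 and 4, where 4768 and 4944 genes had a value, but ranked 22 on array 1 and 71 on array 2. The mean was 3.04 ± 1.31 (SD, n = 4), with a 95% interval of 2.50 to 3.59, whose lower end is 5.66-fold (limma, adjusted p = 2.37e-07). That interval rests on a standard error that 99.8% of genes shared, as do those of *SLT2*, *PKC1* and *SWI4*. It does not widen with the spread of *KDX1* itself. Arrays 1 and 2 averaged 2.02, against 4.07 on arrays 3 and 4, a gap whose size 40 of the 3299 genes, *KDX1* included, reached.

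Both calls were lost without array 4 (limma, adjusted p = 0.0539 for each gene) and with the arrays scaled to 1 spread (adjusted p = 0.0624 for *SLT2* and 0.139 for *KDX1*). *KDX1* alone was also lost with a robust prior, which lets its own spread count (adjusted p = 0.111). The estimates themselves stayed between 1.66 and 2.25 for *SLT2* and between 2.52 and 3.67 for *KDX1* in the 11 other fits.

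**Figure D2:**
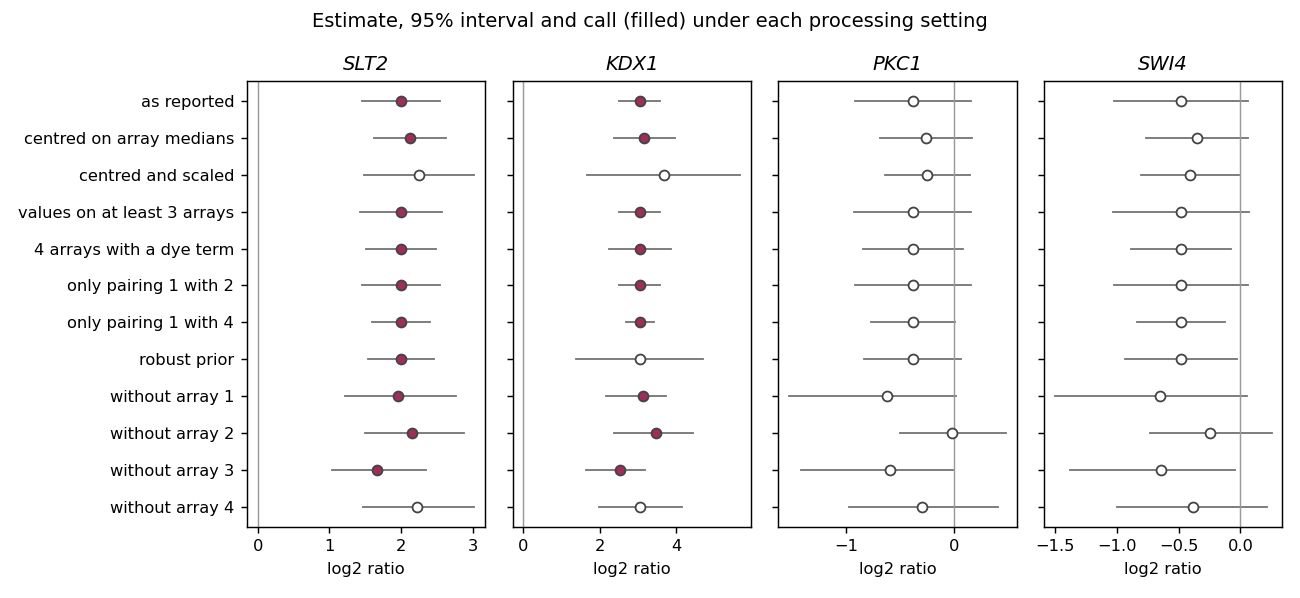
Estimated log2 ratio (horizontal axis, with a scale of its own in each panel) of the 4 genes measured on all arrays, under the reported processing and in 11 other fits. Lines are 95% intervals and filled points passed the threshold. *SLT2* and *KDX1* stay well above 0 in every setting, with 2 open points for *SLT2* and 3 for *KDX1*, and *PKC1* and *SWI4* pass in none.

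*KDX1* exceeded its paralog *SLT2* by 0.47, 0.04, 1.73 and 1.96 on arrays 1 to 4. The difference was above 0 on all 4 arrays but near 0 on array 2 and large only on arrays 3 and 4. Its mean was 1.05 ± 0.94 (SD, n = 4), and an exact sign-flip test over 4 arrays cannot give a p below 0.125, so no test was made. The part of the array pair in this difference was not tested.

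*RLM1*, the MADS-box factor downstream of Slt2, had ratios of 1.10, 1.19 and 0.46 on arrays 1, 3 and 4. All 3 were above 0, and 97.3%, 98.2% and 95.9% of the genes on these arrays read lower. Arrays 1 and 3 (treated RNA in Cy3) read higher than array 4 (treated RNA in Cy5). With array 2 blank, the dye orientations are not balanced in the mean and the estimate of *RLM1*. Its mean was 0.92 ± 0.40 (SD, n = 3), or 1.89-fold. In the fit of genes with at least 3 arrays the estimate was 0.97, with an unadjusted 95% interval of 0.42 to 1.51, and it did not pass (limma, adjusted p = 0.106, unadjusted p = 0.00257). In that fit 0.993% of 4429 genes rose, *SLT2* and *KDX1* among them. Of the 1130 genes with a value on exactly 3 arrays, 82 (7.26%) lay above 0 on all of them and 9, *RLM1* included, had a mean at least as high.

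*SWI4* encodes the DNA-binding subunit of SBF. Its ratios were −0.13, −1.10, −0.17 and −0.52 on arrays 1 to 4. They were below 0 on every array, as for 17.0% of all genes tested, and were lower on arrays 2 and 4 (treated RNA in Cy5) than on arrays 1 and 3. The mean was −0.48 ± 0.45 (SD, n = 4), with a 95% interval of −1.02 to 0.06, and did not pass (limma, adjusted p = 0.593, unadjusted p = 0.0820). The share of genes that read lower was 36.5%, 10.9%, 45.5% and 2.73% on arrays 1 to 4, and array 4 has the narrowest spread.

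*SWI6* encodes the regulatory subunit that SBF shares with MBF, the related complex built on Mbp1. It had 2 values, 0.11 on array 3 and −0.35 on array 4, of opposite sign. On those 2 arrays *SWI4* lay 0.28 and 0.17 below it. *RLM1* exceeded *SWI4* by 1.23, 1.36 and 0.98 on arrays 1, 3 and 4, so the genes of the 2 factors downstream of Slt2 differed by 1.19 ± 0.19 (SD, n = 3), on a small number of arrays and without a test.

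**Figure D3:**
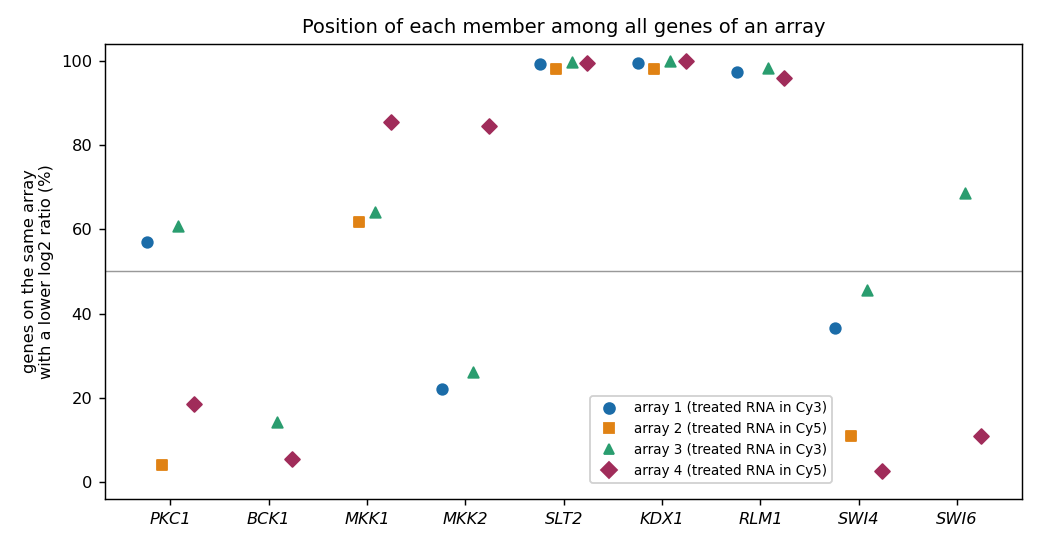
Share of the genes on the same array that read lower than each of the 9 genes (vertical axis, percent), with points coloured by array and the middle of the ranking marked by a line. This measure does not depend on the centring or spread of an array. *SLT2*, *KDX1* and *RLM1* stand above 95% on every array with a value, and *BCK1* stands below 15% on both of its arrays.

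Upstream of the kinases, 1 of 7 tested genes of the sensors and the Rho1 module rose and 0 fell, with a list median of −0.03, against −0.14 over all genes tested. The gene that rose was *TUS1*, a Rho1 exchange factor (mean 1.06, limma, adjusted p = 0.00458), and its ratios of 1.41, 3.18, −0.20 and −0.16 on arrays 1 to 4 split the array pairs in the way opposite to *KDX1*. Its call was lost in 8 of the 11 other fits, among them that of genes with at least 3 arrays (adjusted p = 0.172), the fit with arrays centred and those without array 1, 2 or 4. The next largest means were 0.36 for the sensor gene *WSC2*, 0.30 for *RHO1* and −0.23 for the exchange factor gene *ROM1*. *SLG1*, also called *WSC1*, the sensor that acts beside Mid2, read 0.19, −0.27, 0.05 and −0.07. None of these 4 passed.

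The phosphatases that act on Slt2 were measured thinly. *PTP3*, a tyrosine phosphatase gene and the only one of 4 with a value on all arrays, averaged −0.12 and did not pass. Its homolog *PTP2*, named here after its values were seen, read 1.15, 1.68 and 0.86 on arrays 1, 3 and 4, all above 0 as for *RLM1*. *PTP2* too was lowest on array 4, its only array with treated RNA in Cy5. Its estimate among genes with at least 3 arrays was 1.28 (limma, adjusted p = 0.0723), which did not pass. The remaining phosphatase genes had values on arrays 1 and 4 alone, −0.03 and 0.58 for *MSG5* and −0.15 and 0.13 for *SDP1*. Neither kept 1 sign.

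Partners of Slt2 and SBF held no call among 3 tested genes, and none had an unadjusted p under 0.05. *ZEO1*, whose product binds Mid2, averaged −0.42, *SMI1*, also called *KNR4*, averaged 0.28 and *PAF1* averaged −0.02. Among the MADS-box relatives of Rlm1, *MCM1* averaged −0.29 without passing. *SMP1*, a close relative of *RLM1*, named after its values were seen, read −0.47 and −0.69 on arrays 1 and 3, where *RLM1* was above 1. Both arrays carried the treated RNA in Cy3, so *SMP1* has no value in the other dye orientation.

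The kinases of the other MAP kinase cascades gave a measure of the same class of gene outside the pathway. None of 5 tested passed in limma, also at an unadjusted p under 0.05, and their median was −0.10. *SSK2* (−0.41), *PBS2* (−0.10) and *HOG1* (0.21) belong to the osmotic stress cascade and *STE7* (−0.36) to the pheromone and filamentation cascades. *FUS3*, the pheromone MAP kinase gene, lay between −0.06 and 0.00 on all 4 arrays. The highest of these 5 means was 0.21, against 2.00 for *SLT2* and 3.04 for *KDX1*, though the difference between cascades was not tested.

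Of 17 tested wall genes attributed to Rlm1, 13 rose, 0 fell and 4 did not pass, and the median was 1.50. Of all genes tested, 2.76% rose and 1.39% fell. The wall list contains the 8 genes that set the sign of the ratios, 7 of them among the 13 that rose. It was also chosen with earlier results of these data known. So it gives no independent support for that sign, and its count is not independent of these data. Its largest means were 2.72 for *CWP1*, 2.61 for *SED1* and 2.51 for *PIR3*, which encode wall proteins, and 2.22 for *YPS3*, a cell surface protease gene. *NCW2* (2.15), *PUN1* (1.77), *PRM5* (1.76), *PST1* (1.54), *HSP150* (1.50), *CRH1* (1.47), *CIS3* (1.05), *PIR1* (0.93) and *DFG5* (0.89) were the others that rose. With genes on at least 3 arrays 10 of the 17 rose, without *PIR1*, *CIS3* and *DFG5*, and the count was 2 without array 4 and 1 with the arrays scaled to 1 spread. *CCW14* (0.70), *FKS1* (0.66), *GSC2* (0.34) and *CHS3* (−0.16) did not pass.

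SBF target genes held no call among 7 tested in limma, with a median of 0.21. Of the 7, 2 had an unadjusted limma p under 0.05, against 357 of all 3299 genes tested. The wall gene *SVS1* came closest, with 1.16, 0.71, 0.96 and 0.42 on arrays 1 to 4 and an adjusted p of 0.0688, and it passed in 4 of the 11 other fits. The endonuclease gene *HO* averaged −0.57, the repressor gene *YOX1* 0.48 and *CSI2* 0.22, while the G1 cyclin gene *CLN1* averaged 0.19. None of 4 tested MBF target genes passed (0 at an unadjusted p under 0.05), and *CDC21*, *RNR1*, *POL30* and *POL1*, all genes of DNA synthesis, averaged −0.12, 0.05, −0.05 and −0.04.

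**Figure D4:**
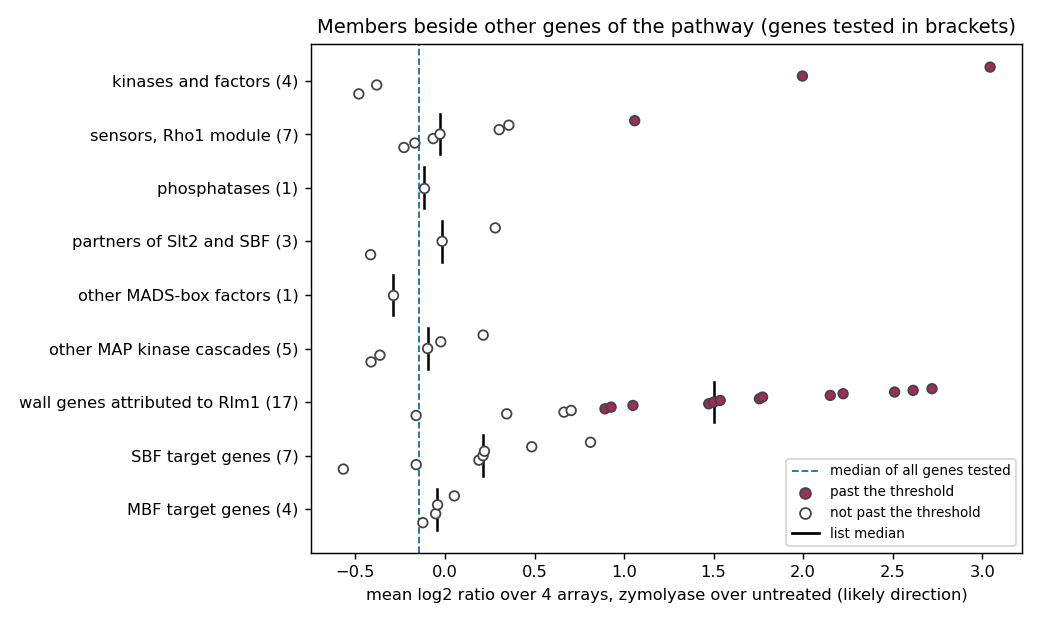
Mean log2 ratio over 4 arrays (horizontal axis, likely direction) of every tested gene of the 9 kinases and factors and of 8 other gene lists, with filled points past the threshold and black bars at list medians (not drawn for the kinases and factors, of which 5 lack a value). The dashed line is the median of all genes tested, −0.14. Filled points are confined to 3 of the rows drawn, with 2 for the kinases and factors, 1 for the sensors and Rho1 module and 13 for the wall genes.

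The genes with the most similar ratios over the 4 arrays were found by Euclidean distance among the other 3298 genes. For *SLT2* they were *PRY2* (distance 0.72), the manganese transporter gene *SMF1* (0.83) and *PRM5* (0.97). *PRY2* read 1.39, 1.20, 3.09 and 1.25 on arrays 1 to 4, with the same high value on array 3. For *KDX1* they were *RTC3* (1.35), *NFG1* (1.70) and *YPL088W* (1.75), so its closest match was farther away than any of the 3 for *SLT2*. The distance depends on the size of the ratios, and few genes can lie near *KDX1*, which ranked 3 of 3299 by mean. It does not show a more distinct pattern. All 6 rose in limma, against 2.76% of all genes tested. They were picked by the same ratios that limma tests, so their calls give no separate support. All 6 calls, like those of *SLT2* and *KDX1*, were lost without array 4 and with the arrays scaled to 1 spread. That of *PRY2* was also lost with genes on at least 3 arrays.

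Genes beside *SLT2* and *KDX1* on the chromosome were also read, but some had too few values to show how local the high ratios were. Of the neighbours of *SLT2* on chromosome VIII, *YHI9* averaged −0.82 (limma, adjusted p = 0.0627) and *DAP2* 0.05, and neither passed. *ERC1* read 0.34, −0.24 and 0.11 on arrays 1, 3 and 4, and *RRM3* had 1 value, −0.12. *KDX1* lies on chromosome XI, where *PIR3*, separated from it by *YKL162C*, rose by 2.51 ± 0.43 (SD, n = 4), a call that was also lost without array 4 and with scaling. *YKL162C* itself had a single value, −0.05 on array 3, where *PIR3* read 2.60 and *KDX1* 4.70. On the other side *ELF1* averaged −0.08 and *RCN1* −0.21, without passing.

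**Figure D5:**
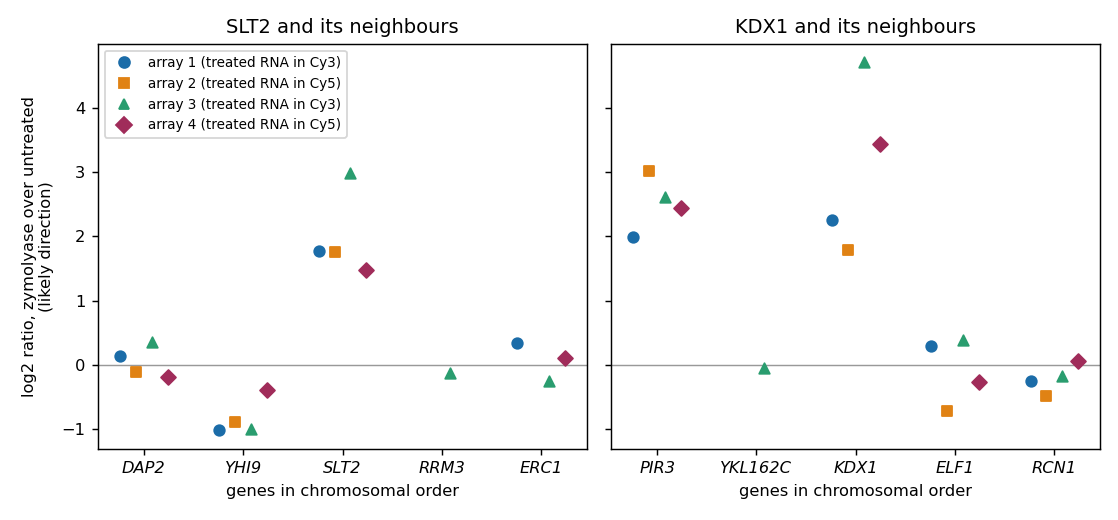
Log2 ratio (vertical axis, likely direction) of *SLT2* and *KDX1* and of the 2 annotated genes on each side, in chromosomal order, with 1 point per array. Around *SLT2* no neighbour exceeds 0.4 on any array, and near *KDX1* only *PIR3* is high, with values from 1.98 to 3.02.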

How the data were processed

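The deposited table gave 1 log2 ratio per open reading frame and array. The authors' normalization and the reason for blanks are not stated in the labels or the table. Base 2 was tested on arrays 3 and 4 and assumed for arrays 1 and 2. After removal of 2 control rows, 5654 of 6207 names matched a RefSeq R64 locus tag and 57 a synonym, and rows of a gene were averaged. Across genes, arrays of opposite dye had Pearson correlations of 0.13 to 0.39 but Spearman correlations of −0.08 to 0.14, against 0.39 and 0.41 (Spearman) for arrays of the same dye. By the rule on Pearson values they were taken as already turned the same way, which the ranks bear out weakly.

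Each Cy3 array can share a culture with either Cy5 array. Under each of the 2 pairings, culture means of 3299 genes were tested against 0 with limma 3.58.1 in R 4.3.3. Each gene had 1 residual degree of freedom. To it limma added prior degrees of freedom, infinite for arrays 1 with 2 and 12.7 for arrays 1 with 4. The p-values and intervals therefore rest mainly on the variance pooled over genes, not on the spread of a single gene. Calls required a Benjamini-Hochberg adjusted p under 0.05 under both pairings, keeping the larger p and the larger standard error. The intervals given run from the lower of the 2 lower limits to the higher of the 2 upper limits. The estimate is the average of the 2 pairings, which differ in it only where an array has no value or is left out.

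The 9 members, the lists and the tests were chosen with earlier results of these data known. Besides the members, the rule named the 4 largest means and every call of each list, 2 neighbours on each side and 3 nearest genes of each called member. *SLG1*, *FUS3*, *CLN1*, *PTP2*, *MSG5*, *SDP1*, *SMP1*, *HIS3*, *LEU2* and the wall genes that did not pass were named after their values were seen. Promoter motifs and protein identity, planned as descriptions, were not analysed here.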

Additional observations from a re-analysis of the deposited data

Results flagged for a closer look

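Dixon's test for a single extreme array was applied to 56 named genes that had 4 values. It marks about 5% of groups by chance when samples are independent, which arrays of shared cultures are not. None of *SLT2*, *KDX1*, *PKC1* and *SWI4* had an array that stood apart, and 4 other genes did. *PRY2*, the gene nearest to *SLT2*, reached 3.09 on array 3, and its other arrays lay between 1.20 and 1.39. *RTC3*, the gene nearest to *KDX1*, reached 4.24 on array 3, and its other arrays lay between 2.59 and 2.76. *PST1* was lowest on array 1, at 1.07, and lay between 1.65 and 1.73 elsewhere.
*CCW14*, a wall protein gene, was also lowest on array 1, at 0.0228, and lay between 0.88 and 1.02 elsewhere.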

How the results depend on the processing

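The 4 arrays, their unstated culture and the unknown spot brightness limit every call. Of the 4 genes tested, 2 passed as reported, 0 with the arrays centred and scaled to 1 spread, and 1 (*SLT2*) with a robust prior. Leaving out single arrays gave 0 to 2, with 0 without array 4. The count stayed at 2 with the arrays centred, with a dye term, with either pairing alone and with values on at least 3 arrays. Over all genes 137 passed (91 higher and 46 lower). Centring and scaling gave 2 (2 and 0), against 396 at an unadjusted limma p under 0.05, and values on at least 3 arrays gave 47 (44 and 3). Arrays 1 with 4 as the only pairing gave 306 (156 and 150), and leaving out single arrays gave 5 to 101 (5 with array 4 left out, 47 with array 1 left out and 73 with array 2 left out). No direction of a member turned in the alternatives run, except that *MKK1* (0.00 as reported) lay at −0.0049 among genes on at least 3 arrays and at 0.16 after centring. Treated and untreated cells were paired within each ratio. No further paired comparison was possible because the labels put all 4 arrays in a single group of ratios.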

Other observations

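The spots for 2 genes that BY4741 carries as deletion alleles, *HIS3* and *LEU2*, gave ratios that followed the dye. *HIS3* read −1.68 and −1.66 on arrays 1 and 3, with treated RNA in Cy3, and −0.50 and −0.18 on arrays 2 and 4, with treated RNA in Cy5. *LEU2* read −0.84 and −1.26 on arrays 1 and 3, and −0.06 and 0.12 on arrays 2 and 4. The mean of *HIS3* passed the threshold (limma, adjusted p = 0.00953) and that of *LEU2* did not (adjusted p = 0.518). The call of *HIS3* was lost in 5 of 11 other fits, among them that of genes with at least 3 arrays (adjusted p = 0.0747) and those without array 1, 3 or 4. The 2 control rows, named for a buffer and for Arabidopsis, read −0.67, −0.82, −0.48 and 0.09, and −0.15, −0.34, −0.37 and −0.01, on arrays 1 to 4. By the same orientations *SLT2* read 1.78 and 2.98 with treated RNA in Cy3 and 1.75 and 1.48 with treated RNA in Cy5. *KDX1* read 2.25 and 4.70 with treated RNA in Cy3 and 1.79 and 3.44 with treated RNA in Cy5. Both averaged higher with treated RNA in Cy3. Of the 3299 genes, 446, *KDX1* included, differed between orientations by at least as much as *KDX1*. The part of the dye in these ratios was not tested.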
